A study of Mus musculus with 4 samples.

Results

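Cadherins and protocadherins were compared between visceral mesothelium of the omentum and parietal mesothelium of the body wall of mice. Members were the genes with symbols of the forms Cdh, Pcdh or Pcdhb followed by a number, each represented by its brightest row. They made up 57 of the 19938 genes that could be named on the arrays, of which 23 were cadherins (Cdh) and 34 were protocadherins, the latter being 12 non-clustered genes (Pcdh) and 22 genes of the beta cluster (Pcdhb).

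Mesothelium is the epithelial sheet that covers the organs and lines the body cavities, and the study asked how its visceral and parietal forms differ in gene expression. RNA was hybridized to 4 Affymetrix whole-transcript arrays, 2 per tissue. All mice were untreated adults on a C57BL/6 background and carried Wt1-cre;Rosa26ReYFP, in which Cre under the control of Wt1 switches on a yellow fluorescent protein, so genotype was shared by both tissues. The methods describe RNA of native tissue with no sorting step named. The parietal sheet was teased off the skeletal muscle below it, so the way of isolation differed along with the site. Judging by the fluorescent marker, the paper states that nearly all of the input came from mesothelial cells. The labels call the arrays biological replicates without giving the animals behind them, and the p-values below therefore reflect only how far these arrays scattered.

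Cadherins are membrane proteins whose extracellular repeats bind calcium and join cells to each other. Classical cadherins hold adherens junctions together, and their cytoplasmic tails bind p120 catenin and beta catenin, which link to actin through alpha catenin. Most classical cadherins bind their own kind on the next cell, and in mesothelium such junctions join the cells of the sheet. Protocadherins share the repeats but lack the catenin-binding tail. The beta protocadherins lie side by side in 1 cluster, each with its own promoter, and are best known from neurons, where combinations of them give cells distinct surfaces.

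The values are log2 signals after RMA normalization, so that a difference of 1 is a 2-fold difference. Signals of different genes are read by different probes and are not compared as levels. A gene was called where limma gave a Benjamini-Hochberg adjusted p under 0.05 over all 19938 genes and the fold was at least 1.5. Array medians lay between 7.38 and 7.41, and the number of arrays limits the precision. With 2 arrays against 2, an exact permutation test of a single gene cannot give a p below 0.333.

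Mesothelial genes were bright on all arrays, and the tissues also differed in markers of other cells. Of 20 measured mesothelial markers, 18 had a mean signal above the median gene, their average lay at 11.04 to 11.11 on the visceral and 11.56 to 11.64 on the parietal arrays, and 9 were called higher in parietal and 3 in visceral tissue. All 28 skeletal muscle markers were higher in parietal mesothelium, where their average was 11.01 to 11.48 against 7.04 to 7.07. Of 25 macrophage and dendritic cell markers, 21 were higher in visceral mesothelium, where their average was 10.12 to 10.22 against 8.15 to 8.33, as were 11 of 15 mast cell markers (7.74 to 7.97 against 6.23 to 6.36). Of 14 B cell markers, 5 were higher in visceral mesothelium (7.25 to 7.55 against 6.34 to 6.39). Parietal replicate 1 stood apart in fat cell genes: the fat hormone Adipoq was at 7.5 on it and at 5.96 to 5.99 on the other arrays, and Retn at 9.46 against 6.95 to 7.46. Without that array, all 9 members called below were still called, and Cdh19 and Pcdhb22 were added. The part of these cells in the differences below was not tested. In tissue RNA, fewer cells of a type and less RNA per cell cannot be told apart.

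Of the 57 members, 9 were called, or 15.8% against 9.60% of all genes. Calls were mostly higher in parietal mesothelium among cadherins and higher in visceral mesothelium among protocadherins. Among the 23 cadherins, 4 were higher in parietal mesothelium (Cdh3, Cdh4, Cdh5 and Cdh13) and 1 in visceral mesothelium (Cdh12), where 4.39% and 5.22% of all genes were called in these directions. Among the 34 protocadherins, 4 were higher in visceral mesothelium (Pcdh9, Pcdh15, Pcdh18 and Pcdhb18), and 0 were called in the other direction, in which 1 protocadherin had an unadjusted p under 0.05 from limma and 1 from the methods' unadjusted test. The median difference, visceral minus parietal, was -0.17 over the cadherins and 0.18 over the protocadherins, against 0.00 over all genes. The beta cluster held 20 of the 25 protocadherins that had a higher visceral mean, while 5 of the 12 non-clustered genes did (medians -0.05 over 9 delta protocadherins and -0.01 over the 3 others). Both parietal arrays lay above both visceral arrays for 10 cadherins and 3 protocadherins (27.4% of all genes), and both visceral arrays above both parietal arrays for 3 cadherins and 18 protocadherins (28.9% of all genes). Arrays of the tissues were thus apart for 34 of the 57 members, against 56.3% of all genes. These counts describe the members, and the difference between the families was not tested.

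**Figure D1:**
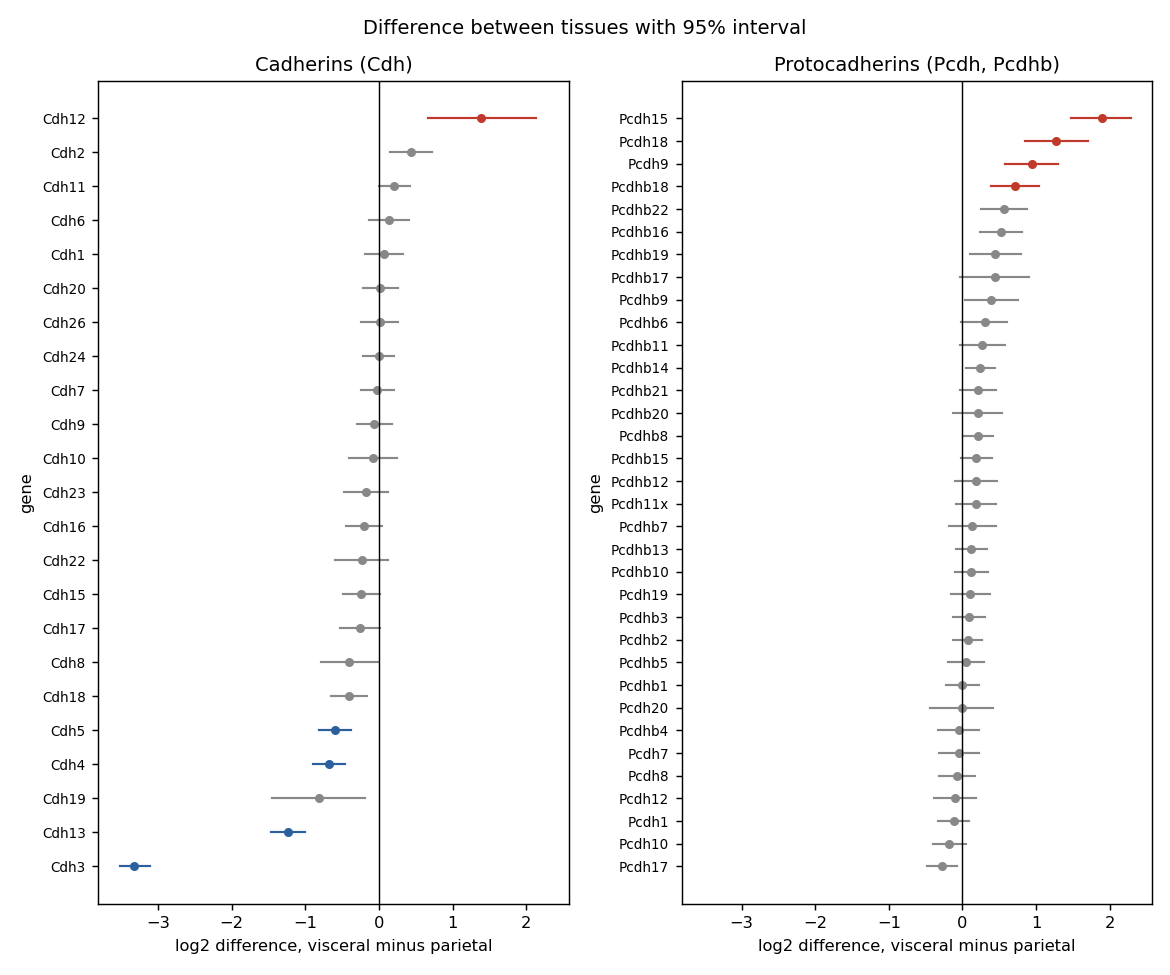
Log2 difference between visceral and parietal mesothelium (x axis, visceral minus parietal) for each of the 23 cadherins (left) and 34 protocadherins (right), ordered by size. Points are limma estimates from 2 arrays per tissue and lines their 95% intervals, coloured red where called higher in visceral, blue where called higher in parietal and grey where not called. Cdh3 lies alone at -3.32, and Pcdh15 has the highest value at 1.89.

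Most members ranked low by signal, a rank that depends on each gene's probes and is no measure of transcript amount. The mean signal of 6 of the 57 exceeded that of the median gene, namely Cdh3, Cdh11, Cdh24, Pcdh7, Pcdh15 and Pcdh18, and 28 lay at or below the 25th percentile of all genes. Of the 9 called members, 6 were below the median gene, which was at 7.73.

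Among type I classical cadherins, which form the adherens junctions of epithelia, muscle and nerve, 2 of 5 were called, both higher in parietal mesothelium. Cdh3, P-cadherin, an epithelial cadherin first known from placenta, was at 8.38 and 8.39 on the visceral arrays and at 11.73 and 11.66 on the parietal arrays. The arrays of each tissue were nearly alike, and the tissues lay far apart. The means were 8.38 ± 0.01 and 11.70 ± 0.05 (SD, n = 2 arrays each), a log2 difference of -3.32 with a 95% interval of -3.52 to -3.11 and an adjusted p of 3.73e-05 from limma.

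Cdh4, R-cadherin, first described in retina and present in forming muscle and kidney epithelium, was at 7.42 and 7.34 in visceral and 8.12 and 8.01 in parietal mesothelium. All parietal values were above all visceral values, and Cdh4 was 1.61-fold higher there (log2 difference -0.68, 95% interval -0.90 to -0.46, adjusted p = 0.00594 from limma).

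The other type I cadherins were not called. Cdh1, E-cadherin, the main cadherin of most epithelia and the neighbour of Cdh3 in the genome, was at 6.92 and 7.06 in visceral and 6.83 and 7.01 in parietal mesothelium. Its arrays overlapped, and the interval of its difference, -0.19 to 0.33, lay within 1.5-fold either way. Cdh2, N-cadherin, of nerve, heart and mesothelial junctions, was at 6.96 and 6.97 in visceral and 6.67 and 6.39 in parietal mesothelium, without overlap. Its difference of 0.43 missed the threshold (adjusted p = 0.0613), with an interval of 0.15 to 0.72 that reached beyond 1.5-fold. Cdh15, M-cadherin, which joins satellite cells to muscle fibres, was at 7.32 and 7.36 in visceral and 7.47 and 7.68 in parietal mesothelium, a difference of -0.24 (-0.49 to 0.01, adjusted p = 0.203). Of 16 satellite cell and myoblast markers, 4 were called higher in parietal and 1 in visceral mesothelium (averages 7.68 to 7.74 against 7.15 to 7.20), while the satellite cell factor Pax7 differed by -0.02.

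**Figure D2:**
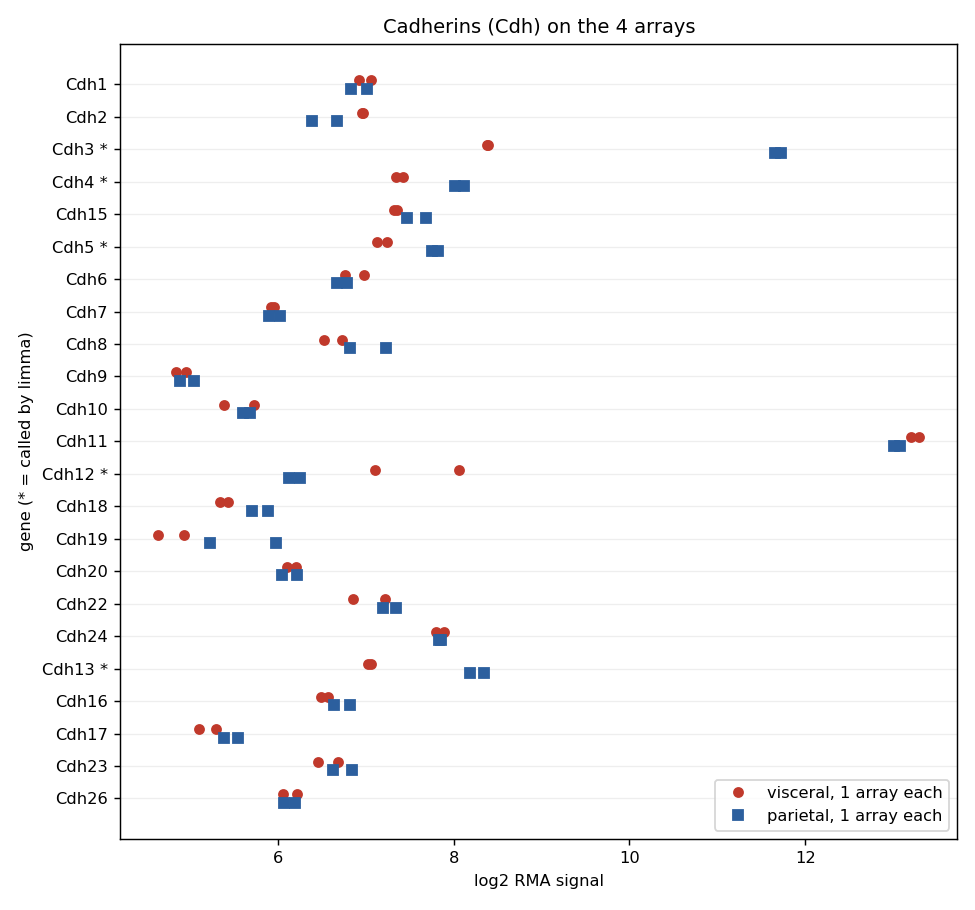
Log2 RMA signal (x axis) of the 23 cadherins on each of the 4 arrays, with visceral arrays as red circles and parietal arrays as blue squares, and called genes starred. Cdh3 shows the widest gap, the visceral arrays of Cdh12 lie at 8.06 and 7.10, and the 4 values of Cdh11, from 13.01 to 13.30, lie farthest to the right.

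Type II cadherins lack some motifs of the type I adhesive repeat and are mostly found in nerve, mesenchyme and vessels. Of 13, Cdh5 was called higher in parietal and Cdh12 in visceral mesothelium, and their median difference was -0.06. Cdh5, VE-cadherin, the junctional cadherin of endothelium, was at 7.13 and 7.24 in visceral and 7.75 and 7.82 in parietal mesothelium. The tissues did not overlap, but the 1.51-fold difference was at the edge of the fold threshold (log2 -0.60, 95% interval -0.82 to -0.38, adjusted p = 0.0092), and it was no longer called without visceral replicate 1 (-0.54) or parietal replicate 2 (-0.56). Of 22 endothelial markers, 2 were called higher in visceral mesothelium (Lyve1, 3.37, and Cd34, 0.77) and 1 in parietal mesothelium (Esam, -0.69), and their median difference was 0.03, with averages of 7.95 to 8.05 in visceral and 7.83 to 7.84 in parietal mesothelium.

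Cdh12, a brain cadherin also named N-cadherin 2, was at 8.06 and 7.10 in visceral and at 6.25 and 6.13 in parietal mesothelium. Both visceral arrays were above the parietal ones, but they differed from each other by 0.95, the widest gap between arrays of 1 tissue among the members. The difference was 1.39 (95% interval 0.66 to 2.13, adjusted p = 0.0324), falling to 0.92 without visceral replicate 1 and rising to 1.87 without visceral replicate 2, called in both cases. It was lost when all rows of the array, not 1 per gene, were fitted (adjusted p = 0.0886). The cadherin genes in a row before it in the genome, Cdh6, Cdh9 and Cdh10, differed by 0.14, -0.06 and -0.08, and Cdh18, beyond Acot10 on its other side, by -0.41, and none of them was called.

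Cdh11, OB-cadherin, of mesenchymal cells and osteoblasts, was at 13.30 and 13.21 in visceral and 13.08 and 13.01 in parietal mesothelium. Its signal ranked above that of 99.8% of genes, and its difference of 0.21 (0.00 to 0.42, adjusted p = 0.192) lay within 1.5-fold. A further 3 rows name Cdh11 together with other genes, and they differed by 0.12 to 0.13. Its genome neighbours are Cdh8 and Cdh5.

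Cdh19, a cadherin of Schwann cell precursors, was at 4.64 and 4.93 in visceral and 5.23 and 5.98 in parietal mesothelium. The parietal arrays were higher but differed from each other by 0.75, and the difference of -0.82 was not called (-1.45 to -0.19, adjusted p = 0.0987). Of 17 Schwann cell and nerve markers, 2 were called, both higher in visceral mesothelium (Scn7a, 1.52, and Cnp, 0.73), and the averages overlapped, at 7.64 to 7.71 and 7.61 to 7.76. At an unadjusted p under 0.05 from limma, 7 passed, 5 of them with the parietal arrays higher. Of all 19938 genes, 5408 passed in either direction. Among the 5 were Erbb3 (-0.44, adjusted p = 0.0284) and Pmp22 (-0.40, adjusted p = 0.0415), both short of the fold threshold. The median difference of the list was -0.04, and Ngfr (0.14), S100b (0.08) and Mag (-0.04) did not pass. The Schwann cell factor Sox10 was at 7.21 and 7.28 in visceral and 7.42 and 7.47 in parietal mesothelium (-0.20, adjusted p = 0.197). Cdh18 and Cdh8, both of neurons, also lay higher on both parietal arrays (-0.41, adjusted p = 0.0511, and -0.40, adjusted p = 0.176). The arrays overlapped for Cdh7, Cdh20, Cdh22 and Cdh24, whose differences ran from -0.23 to 0.02.

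Of the 5 remaining cadherins, Cdh13 was called. Cdh13, T-cadherin, has no cytoplasmic tail, is held in the membrane by a lipid anchor and binds adiponectin. It was at 7.02 and 7.06 in visceral and 8.19 and 8.35 in parietal mesothelium. The arrays of each tissue were close, and parietal mesothelium was 2.34-fold higher (log2 difference -1.23, 95% interval -1.46 to -1.0, adjusted p = 9.17e-04). Cdh16, of kidney epithelium, and Cdh17, of liver and intestine, were slightly higher on both parietal arrays and were not called (-0.20 and -0.26). Cdh23 (-0.17) and Cdh26 (0.01) overlapped between tissues.

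The 3 largest visceral excesses among protocadherins were those of non-clustered genes. Of 9 delta protocadherins, adhesion proteins of the developing nervous system and mesoderm, Pcdh9 and Pcdh18 were called, and of the 3 other non-clustered genes, Pcdh15 was. The promoters of these 3 genes and of Cdh12 are shown because they are the 4 called members with a window in the RefSeq promoter table (build GRCm38.p6), which runs from 250 bases before to 50 bases after the transcript start. They lie at chr10:73821617-73821916 on the plus strand for Pcdh15, at chr3:49757267-49757566 on the minus strand for Pcdh18, at chr14:93890630-93890929 on the minus strand for Pcdh9 and at chr15:21111202-21111501 on the plus strand for Cdh12. Sequences read 5′ to 3′ along the gene, and capitals mark any of 4 motifs searched on both strands: CACCTG, an E-box bound by repressors of cadherin genes such as Snai1 and Zeb1, the TATA box TATAAA, the GC box GGGCGG, and GCGTGGG, a core bound by EGR and WT1 proteins.
Pcdh15: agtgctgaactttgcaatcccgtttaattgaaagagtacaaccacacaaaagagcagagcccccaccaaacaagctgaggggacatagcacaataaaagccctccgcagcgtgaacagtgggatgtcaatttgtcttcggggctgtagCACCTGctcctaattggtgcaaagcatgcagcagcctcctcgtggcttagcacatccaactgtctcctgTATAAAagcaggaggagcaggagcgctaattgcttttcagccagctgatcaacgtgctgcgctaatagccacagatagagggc
Pcdh18: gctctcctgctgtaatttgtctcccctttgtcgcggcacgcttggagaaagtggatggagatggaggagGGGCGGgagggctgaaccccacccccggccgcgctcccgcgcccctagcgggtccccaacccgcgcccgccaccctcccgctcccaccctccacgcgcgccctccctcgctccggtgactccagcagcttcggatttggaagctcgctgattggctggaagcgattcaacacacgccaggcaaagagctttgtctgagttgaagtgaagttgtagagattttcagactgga
Pcdh9: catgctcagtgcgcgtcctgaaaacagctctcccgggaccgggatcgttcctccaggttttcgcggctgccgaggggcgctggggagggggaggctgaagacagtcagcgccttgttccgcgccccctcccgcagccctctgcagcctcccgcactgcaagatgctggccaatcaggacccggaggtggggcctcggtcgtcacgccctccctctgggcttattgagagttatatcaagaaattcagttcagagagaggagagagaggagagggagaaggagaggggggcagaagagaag
Cdh12: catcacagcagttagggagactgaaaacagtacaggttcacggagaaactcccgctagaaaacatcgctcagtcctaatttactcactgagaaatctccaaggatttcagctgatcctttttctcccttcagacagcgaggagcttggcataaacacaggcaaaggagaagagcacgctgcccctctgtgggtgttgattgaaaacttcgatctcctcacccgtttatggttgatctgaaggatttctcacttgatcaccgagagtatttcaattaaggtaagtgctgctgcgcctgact

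The windows differed in composition. That of Pcdh15 held 8 CpG dinucleotides, a CACCTG beginning at position -102 from the start and a TATAAA at -33. That of Pcdh18 held 23 CpG and a GGGCGG at -181, while those of Pcdh9 and Cdh12 held 18 and 9 CpG and none of the 4 motifs. Over all 27025 promoters of this length, 20.0% held CACCTG, 14.2% TATAAA, 35.9% GGGCGG and 4.9% GCGTGGG, and the median was 7 CpG. Windows were found for 22 of the 57 members, of which 3 held CACCTG, 2 TATAAA, 9 GGGCGG and 2 GCGTGGG. A match is a run of letters and not a measured binding site.

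Pcdh15 forms, with Cdh23, the tip link of the hair cells of the inner ear. It was at 8.86 and 9.32 in visceral and 7.15 and 7.26 in parietal mesothelium, with a wide gap between tissues. The means were 9.09 ± 0.33 and 7.20 ± 0.08 (SD, n = 2 each), a 3.7-fold difference (log2 1.89, 95% interval 1.48 to 2.29, adjusted p = 0.00138). Its second row was at 7.17 and 7.40 in visceral and 7.24 and 7.60 in parietal mesothelium. This row did not show the difference (-0.13, adjusted p = 0.701 from limma when all rows were fitted). The row used was chosen by its mean over the arrays, and was the brighter of the 2 on the visceral arrays only. With its rows averaged, Pcdh15 differed by 0.88 (adjusted p = 0.0141 from limma). Cdh23, its partner in the ear, was at 6.46 and 6.68 in visceral and 6.63 and 6.84 in parietal mesothelium and was not called (adjusted p = 0.451).

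Pcdh18, a delta protocadherin of mesoderm and brain, was at 9.68 and 9.44 in visceral and 8.51 and 8.06 in parietal mesothelium. Both visceral arrays were well above both parietal arrays, and the 2.42-fold difference was called (log2 1.27, 95% interval 0.85 to 1.70, adjusted p = 0.0067). Pcdh9, a delta protocadherin known from neural circuits, was at 7.21 and 7.58 in visceral and 6.37 and 6.53 in parietal mesothelium, a 1.92-fold difference (log2 0.94, 95% interval 0.58 to 1.30, adjusted p = 0.0108). Its second row pointed the same way, with a difference of 0.77. Pcdh20, its neighbour in the genome, overlapped between tissues at 5.83 and 6.31 against 6.19 and 5.97.

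The other non-clustered protocadherins were not called. Pcdh7, a delta protocadherin with 8.96 and 9.05 in visceral and 9.18 and 8.94 in parietal mesothelium, differed by -0.05, with an interval of -0.32 to 0.22 inside 1.5-fold. Pcdh17, Pcdh10 and Pcdh1 were higher on both parietal arrays by small amounts (-0.28, -0.18 and -0.12), the adjusted p of Pcdh17 being 0.0869. The arrays overlapped for Pcdh8, Pcdh11x, Pcdh19 and the endothelial Pcdh12, which differed by -0.10 to 0.18.

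**Figure D3:**
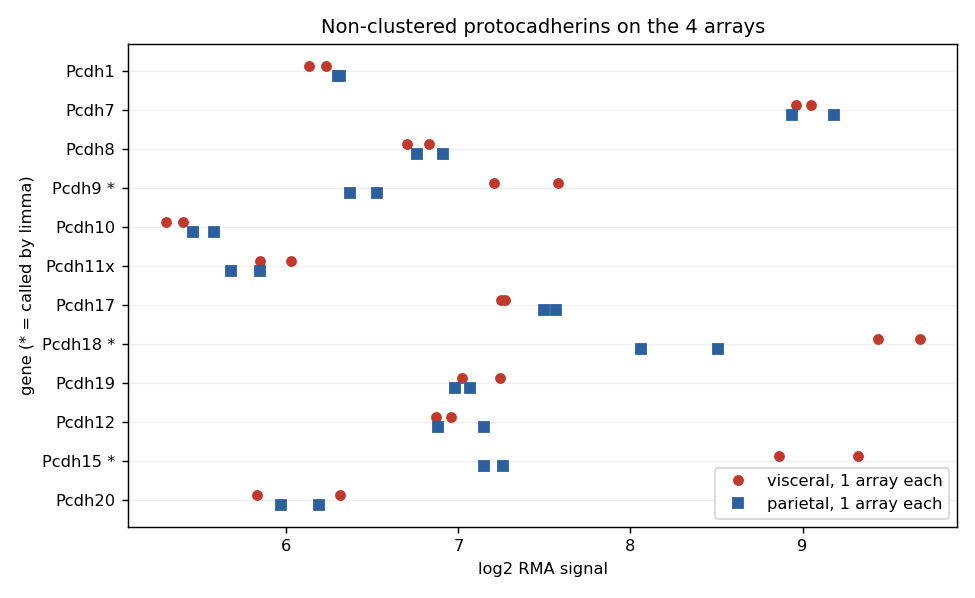
Log2 RMA signal (x axis) of the 12 non-clustered protocadherins on each array, with visceral arrays as red circles and parietal arrays as blue squares, and called genes starred. Pcdh15, Pcdh18 and Pcdh9 are separated, with the visceral arrays higher, and the arrays of Pcdh7 overlap between 8.94 and 9.18.

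In the beta cluster, differences were small and mostly in 1 direction. Of 22 genes, 20 had a higher mean in visceral mesothelium, all but Pcdhb1 (-0.01) and Pcdhb4 (-0.05), where 50.4% of all genes were higher there. The median difference was 0.21. Both visceral arrays lay above both parietal arrays for 15 genes, against 28.9% of all genes, and the arrays overlapped for Pcdhb1, Pcdhb3, Pcdhb4, Pcdhb5, Pcdhb7, Pcdhb12 and Pcdhb20. Only Pcdhb18 was called, or 4.55% of the cluster, against 9.60% of all genes. All 22 signals were below that of the median gene, and 16 were at or below the 25th percentile. Beta genes are close copies of each other, and probes of one may read transcripts of another, so these are not 22 separate measurements.

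Pcdhb18 was at 6.49 and 6.14 in visceral and 5.58 and 5.62 in parietal mesothelium. Both visceral arrays were higher, and the difference was 0.72 (1.64-fold, 95% interval 0.39 to 1.04, adjusted p = 0.0189). Without visceral replicate 1 it was 0.54 and no longer called, and it was also not called when all rows were fitted (adjusted p = 0.0576).

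Pcdhb16 and Pcdhb22 passed the adjusted p (0.0343 and 0.0388) but not the fold. Pcdhb16 was at 7.20 and 6.93 in visceral and 6.52 and 6.55 in parietal mesothelium (1.44-fold), and Pcdhb22 at 7.06 and 6.83 in visceral and 6.50 and 6.26 in parietal mesothelium (1.48-fold). Pcdhb17 was at 6.15 and 5.62 in visceral and 5.33 and 5.56 in parietal mesothelium. Its visceral arrays differed by 0.52, and its interval of -0.03 to 0.91 included 0. Of the other separated genes, Pcdhb19 (0.44), Pcdhb9 (0.39), Pcdhb6 (0.30), Pcdhb11 (0.27) and Pcdhb14 (0.24) had the higher values, and Pcdhb2, Pcdhb8, Pcdhb10, Pcdhb13, Pcdhb15 and Pcdhb21 ran from 0.07 to 0.21.

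The later genes of the cluster had a higher median difference than the earlier ones. The genome order of the 22 genes follows their numbering. The median difference of the first 11 was 0.12 (range -0.05 to 0.39) and that of the last 11 was 0.24 (range 0.12 to 0.72). These ranges overlap, and the 22 genes share the 4 arrays and much of their sequence, so this is given as a description. Without visceral replicate 1, 21 of the 22 genes were still higher in visceral mesothelium, with a median of 0.16 and Pcdhb18 no longer called, and without visceral replicate 2, 19 were higher, with a median of 0.24 and 4 called.

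**Figure D4:**
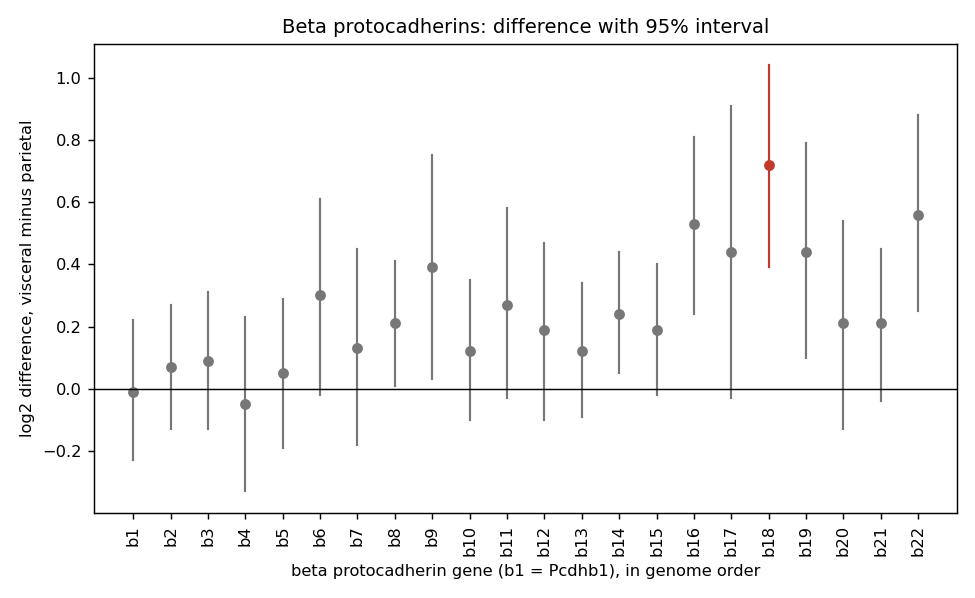
Log2 difference between visceral and parietal mesothelium (y axis, visceral minus parietal) of the 22 beta protocadherins in genome order (x axis), from 2 arrays per tissue. Points are limma estimates and lines 95% intervals, red for the called gene. Values above 0.50 are those of Pcdhb16, Pcdhb18 and Pcdhb22.

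Regulators of the clustered protocadherins were not called in either direction, where 9.60% of all genes were called. The list of 15 measured genes included Ctcf, which holds the promoter and enhancer loops of the cluster, cohesin subunits, and the silencing proteins Smchd1 and Setdb1. Their median difference was 0.14, and 3 had an unadjusted p under 0.05 from limma and 4 from the methods' unadjusted test, all higher in visceral mesothelium. The cohesin subunit Stag1 was at 9.91 and 9.80 in visceral and 9.46 and 9.45 in parietal mesothelium (0.40, adjusted p = 0.0327), short of the fold threshold.

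The core catenins of classical cadherin junctions were not called. Beta catenin (Ctnnb1) differed by -0.06 (adjusted p = 0.761), alpha catenin (Ctnna1) by 0.03 (adjusted p = 0.891), p120 catenin (Ctnnd1) by 0.15 (adjusted p = 0.319) and plakoglobin (Jup) by 0.06 (adjusted p = 0.741). Of 32 catenins and junction proteins, 8 were called, 4 in each direction, against 9.60% of all genes. Their median difference was 0.03. Ctnnd2, delta catenin, a neural relative of p120, was at 10.23 and 9.53 in visceral and 6.89 and 7.0 in parietal mesothelium, a 7.64-fold difference (log2 2.93, adjusted p = 9.28e-04). Lmo7, which links nectin and cadherin junctions to actin, was at 7.14 on both visceral arrays and at 9.86 and 10.09 on the parietal arrays (-2.83, adjusted p = 1.05e-04). Ajuba, a LIM protein at junctions, was higher in parietal mesothelium (-1.21, adjusted p = 0.00266), and the scaffold Magi1 in visceral mesothelium (0.86, adjusted p = 0.00181).

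In the rest of the cadherin superfamily, 3 of 23 genes were called, against 9.60% of all genes. Celsr1 and Celsr2, adhesion receptors of planar cell polarity, were higher in parietal mesothelium (-0.81, adjusted p = 0.00633, and -0.72, adjusted p = 0.0224), and the calsyntenin Clstn2 was higher in visceral mesothelium (0.74, adjusted p = 0.0333). The median difference was -0.01.

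Of the 48 members that were not called, 37 had a 95% interval within 1.5-fold either way. The interval reached 1.5-fold for 5 cadherins (Cdh2, Cdh8, Cdh18, Cdh19 and Cdh22) and 6 beta protocadherins (Pcdhb6, Pcdhb9, Pcdhb16, Pcdhb17, Pcdhb19 and Pcdhb22). For these, a difference of that size was not settled with these arrays, and Pcdhb16 and Pcdhb22 missed only the fold threshold. The intervals within 1.5-fold describe array signals, and many of the members with such intervals ranked low by signal. Because signal over background was not measured, a narrow interval of a low-ranking member cannot exclude a transcript difference of that size. Arrays of the tissues did not overlap for any of the 9 called members, so leaving out 1 array could not change their direction. In size, Cdh3 stayed between -3.35 and -3.28, Cdh13 between -1.31 and -1.15 and Cdh4 between -0.73 and -0.63. Pcdh15 stayed between 1.65 and 2.12, Pcdh18 between 1.05 and 1.5 and Pcdh9 between 0.76 and 1.13.

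**Figure D5:**
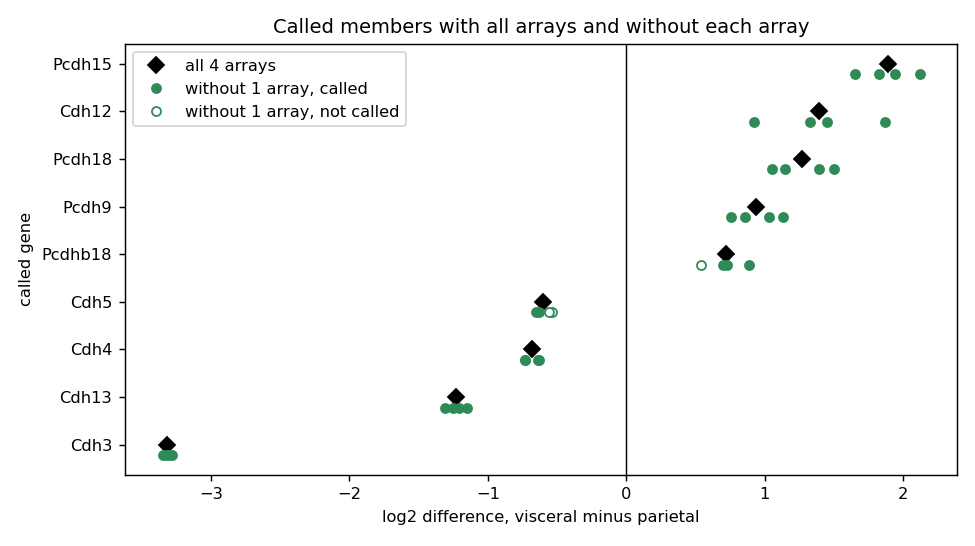
Log2 difference between visceral and parietal mesothelium (x axis, visceral minus parietal) of the 9 called members with all 4 arrays (black diamonds) and without each array in turn (green circles, open where no longer called). Open circles appear for Cdh5 and Pcdhb18, and Cdh12 has the widest spread, from 0.92 to 1.87.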

How the data were processed

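Total RNA of visceral and parietal mesothelium was hybridized to 4 Affymetrix arrays, 2 for each tissue. Signals were deposited on the log2 scale, after RMA normalization by the authors in Partek 6.6. Which annotation and library version that run used is not given in the sources used here.

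These values entered the comparison unaltered. A platform annotation named the rows: of 35556, 21789 had 1 symbol, 1621 several and 12146 none, and rows with several named no gene. Each of 19938 genes was represented by its row with the highest mean over the 4 arrays, since 999 genes had more than 1 row, among them Cdh18, Cdh24, Pcdh9 and Pcdh15. Genome order and neighbours came from a RefSeq table of GRCm38.p6, and promoter sequences from RefSeq on that build.

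Differences were fitted with limma 3.58.1 (R 4.3.3; lmFit and eBayes, all 4 arrays, no block) and p-values were adjusted by Benjamini-Hochberg over all genes. A call required an adjusted p below 0.05 together with a fold of 1.5 or more. An ordinary t-test per gene stood in for the one-way ANOVA of the methods. It was an alternative only, since 2 arrays per tissue leave it little information on spread. Further alternatives changed the thresholds, tested against 1.5-fold rather than 0, renormalized or filtered the values, fitted every row, blocked on replicate number or dropped each array in turn. Simulated arrays with set changes were used to check the fit.

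Members, gene lists and tests were chosen with earlier results of these data known. Every member is named, with values on each array for called members and for those whose arrays of 1 tissue differed by over 0.5, and no more than 4 called genes with the lowest adjusted p are named per accompanying list, with none for some marker lists. The core catenins, Pax7, Pax3, Myf5, Myog, Myod1, Stag1, Met, Adam10, Sox10, Erbb3, Pmp22, Ngfr, S100b, Mag and the uncalled fat cell genes were named after their values were seen. Scan dates were not used here.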

Additional observations from a re-analysis of the deposited data

How the results depend on the processing

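With an ordinary t-test per gene after adjustment, 0 of all genes were called (lowest adjusted p = 0.0861), against 1915 genes by limma. Thus 0 cadherins and 0 protocadherins were called in either direction. The study itself reported many differing probes from a one-way ANOVA at the same adjusted p and fold thresholds. Why its result differs from that of the ordinary t-test was not tested. Unadjusted, the ordinary t-test called 1582 genes and 0 cadherins higher in visceral mesothelium. A test against a fold of 1.5 called 724 genes, 0 cadherins higher in visceral, 2 cadherins higher in parietal and 1 protocadherin higher in visceral mesothelium. A fold of at least 2 left 978 genes, 2 cadherins higher in parietal and 2 protocadherins higher in visceral mesothelium. Fitting all rows left 0 cadherins higher in visceral mesothelium. Restricting the fit to genes above the median signal, which left 6 members, called 0 cadherins in visceral, 1 cadherin in parietal and 2 protocadherins in visceral mesothelium. Without 1 array, 1696 to 2095 genes were called, 3 to 5 cadherins in parietal and 3 to 7 protocadherins in visceral mesothelium, the 7 being without visceral replicate 2, which added Pcdhb9, Pcdhb16 and Pcdhb17. No called member changed direction under any alternative run. Changes of test or threshold kept the estimates, and dropping 1 array could not reverse members whose arrays did not overlap. Renormalizing moved the median of all genes by at most -0.02.

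With the replicate number as a block, 2008 genes were called, with 1 cadherin higher in visceral, 5 in parietal (Cdh19 was added) and 4 protocadherins in visceral mesothelium. Deviations of same-numbered arrays correlated at 0.356, and those of the crossed arrays at -0.356. With 2 arrays per tissue both pairs must give the same value and the crossed ones its negative. This is therefore a single number and cannot settle pairing. The methods took both tissues from the same group of mice, but neither they nor the labels tie a number to an animal, so whether the arrays are paired was not settled. Signal over background was not measured here.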

Other observations

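Genes whose products cut, bind or recycle cadherins were called in both directions. Of 31 such genes, 2 were called higher in visceral mesothelium (Hgf and Mmp9) and 3 in parietal mesothelium (Ptprm, Pcsk5 and Met). Over all genes, 5.22% and 4.39% were called in these directions. The median difference of the 31 was 0.00. Ptprm, a receptor phosphatase that binds cadherin complexes, was at 8.12 and 8.34 in visceral and 9.49 and 9.61 in parietal mesothelium (log2 difference -1.32, adjusted p = 0.00121 from limma), and the proprotein convertase Pcsk5 was at 8.0 and 8.22 against 9.56 and 9.35 (-1.34, adjusted p = 0.00151). Hgf, the scatter factor that loosens epithelial junctions, was at 6.64 and 6.89 in visceral and 5.74 and 5.68 in parietal mesothelium (1.06, adjusted p = 0.00266), while its receptor Met was at 10.06 and 9.47 against 10.65 and 10.60 (-0.86, adjusted p = 0.0395). The gelatinase Mmp9 was higher in visceral mesothelium by 0.72 (adjusted p = 0.00579). Adam10, the main sheddase of E- and N-cadherin, differed by -0.13 (adjusted p = 0.567).

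Further marker lists showed differences in both directions. Of 14 fibroblast markers, 7 were called higher in parietal and 3 in visceral mesothelium (median -0.49), of 13 adipocyte markers, 3 were called higher in parietal mesothelium (Car3, Slc2a4 and Plin4, all known from muscle too; median -0.43), and of 18 smooth muscle and pericyte markers, 11 were called, 7 of them higher in visceral mesothelium (median 0.55). Cidec (8.03) and Fabp4 (8.94) were high on parietal replicate 1 alone, the other arrays lying at 6.98 to 7.13 and 8.01 to 8.13. The part of these cells in the differences among cadherins was not tested.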
